A study of Mus musculus with 4 samples.

Results

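The genes described are 9 markers of lipid-associated macrophages: Trem2, Gpnmb, Fabp5, Cd63, Lgals3, Cd9, Spp1, Lpl and Fabp4. They were chosen by symbol, 9 of 55414 genes in the count matrices, and each symbol matched 1 gene. The choice was made with their levels in the macrophages of these same libraries already known, so the levels below are a description and are no independent evidence of a difference between groups. They were measured in single liver cells (10x Genomics 3′ chemistry) of 2-month-old mice with the genotype A/A or S/S. The labels do not spell out what A and S stand for. Each genotype was studied at baseline and 3 h after an intraperitoneal dose of 500 ng TNF, an inflammatory cytokine. Each of these 4 groups held 1 library with the pooled cells of 2 mice, from perfused and digested livers, taken through low-speed spins, a Ficoll step and a sort that enriched macrophages and live cells. With 1 library per group no difference could be tested, and the brackets give 95% intervals that cover counting error only.

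Lipid-associated macrophages are a state that macrophages take on in fatty tissue, in steatotic liver and around dying cells. TREM2 is a lipid-sensing surface receptor, and the other genes encode proteins of lipid handling (Lpl, Fabp4, Fabp5), of the lysosome and the cell surface (Gpnmb, Cd63, Cd9), and secreted proteins (Lgals3, Spp1). In the liver they are known from recruited macrophages that take up niches beside resident Kupffer cells, the macrophages of the sinusoids that carry Clec4f, Vsig4 and Timd4.

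The promoters of Trem2 and Gpnmb are shown because these genes were found together in single macrophages of the S/S libraries and in no macrophage of the A/A libraries. Each runs from 250 bases before to 50 bases after the RefSeq start on the plus strand of GRCm38.p6. Capitals mark the match to TGANTCA, a loose form of the AP-1 transcription factor site in which N is any base. The AP-1 site itself has C or G there, so the Gpnmb match (TGACTCA) has its letters and the Trem2 match (TGAATCA) does not.
Trem2 promoter, chr17:48346151-48346450: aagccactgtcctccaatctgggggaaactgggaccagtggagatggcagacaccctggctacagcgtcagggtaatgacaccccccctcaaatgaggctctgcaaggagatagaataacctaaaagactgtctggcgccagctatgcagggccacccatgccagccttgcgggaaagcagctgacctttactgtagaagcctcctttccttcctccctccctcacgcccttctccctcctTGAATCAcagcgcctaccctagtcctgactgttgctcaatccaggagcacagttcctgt
Gpnmb promoter, chr6:49036268-49036567: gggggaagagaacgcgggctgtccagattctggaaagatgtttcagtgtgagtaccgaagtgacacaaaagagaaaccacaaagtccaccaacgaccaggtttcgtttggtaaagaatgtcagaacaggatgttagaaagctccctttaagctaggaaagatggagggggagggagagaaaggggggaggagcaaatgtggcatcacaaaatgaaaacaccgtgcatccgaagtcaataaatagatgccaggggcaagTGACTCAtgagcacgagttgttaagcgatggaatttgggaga
The match began 9 bases before the start of Trem2 and 8 bases after that of Gpnmb. On either strand the letters TGANTCA occurred in 7.81% of 32851 promoters of this length, and in none of the other 4 members with an entry (Cd63, Lgals3, Cd9 and Spp1). Of 3 further motifs searched on both strands, AGGAAGT, a core bound by PU.1 and present in 9.35% of promoters, was found in Spp1 only. CATGTG, an E-box present in 14.2% of promoters, was found in Cd9 only. CACGTG, an E-box bound by TFEB and TFE3 and present in 7.15%, was found in none of the 6. A match describes the letters in this window and is not evidence of binding.

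Values given for 4 libraries run from A/A at baseline and S/S at baseline to A/A with TNF and S/S with TNF. The libraries held 21088801, 30724027, 53556431 and 54999906 UMIs (counted transcript molecules), and 2830, 4366, 6452 and 5528 cells were kept. Cells were put into 19 classes by 8 marker genes each, none of them among the 9 genes, and 20.1 to 33.9% of the cells stayed without a class. Macrophages, in which all 8 macrophage markers were seen, were split into cells with at least 1 UMI of Clec4f, Vsig4 or Timd4 (Kupffer-marked macrophages, 270, 224, 344 and 174 cells) and cells with 0 (unmarked macrophages, 61, 237, 49 and 229 cells). Their median depths were 2083.5, 1531, 2259 and 3182 UMIs and 3136, 1483, 1194 and 5439 UMIs. Levels are CPM, the UMIs of a gene per 1000000 UMIs of all cells of the class in 1 library. T cells, which should lack most of these genes, served as a background, at median depths of 12683.5, 7671.5, 10925 and 9293 UMIs. They were thus deeper than the macrophages, and the background in barcodes as shallow as the macrophages was not tested. Both baseline libraries were counted with Cell Ranger 7.1.0 and both TNF libraries with 6.1.2, so treatment and software version cannot be told apart. Any pair of libraries shared 4 to 12 cell barcodes.

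Across the cell classes, the 9 genes fell into distinct patterns. Trem2 and Lpl were highest in a macrophage class in every library, and Gpnmb in both S/S libraries. In A/A after TNF the Trem2 interval of Kupffer-marked macrophages overlapped those of both monocyte classes. In the A/A libraries Gpnmb was highest in T cells, at 2.78 and 4.57 CPM. These intervals overlapped those of other classes, among them Kupffer-marked macrophages at baseline and plasma cells after TNF. Cd9 was highest in neutrophils and Fabp4 in endothelial cells in all 4 libraries, with Cd9 of neutrophils overlapping that of cDC1 (cross-presenting dendritic cells) in A/A at baseline and that of nonclassical monocytes in A/A after TNF. Fabp5 was highest in endothelial cells, except in the A/A TNF library, where mature dendritic cells led at 1261 CPM [1150, 1379]. Lgals3 was led by cDC1 in A/A at baseline at 808 CPM [694, 935] and by classical monocytes in S/S at baseline (2087 CPM) and in A/A after TNF (985 CPM). In S/S after TNF unmarked macrophages (1446 CPM) and classical monocytes (1377 CPM) had overlapping intervals. Cd63 was led by unmarked macrophages in A/A at baseline (129 CPM) and by Kupffer-marked macrophages in S/S at baseline (196 CPM). The latter overlapped unmarked macrophages (183 CPM) and neutrophils (146 CPM). After TNF mature dendritic cells led Cd63 (200.01 CPM in A/A, overlapping unmarked macrophages, and 604 CPM in S/S). Spp1 was led by hepatocyte barcodes in the A/A libraries (13.8 CPM at baseline, overlapping unmarked macrophages and other classes, and 139 CPM after TNF) and by unmarked macrophages in the S/S libraries (101 and 167 CPM), among classes with at least 25 cells.

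**Figure D1:**
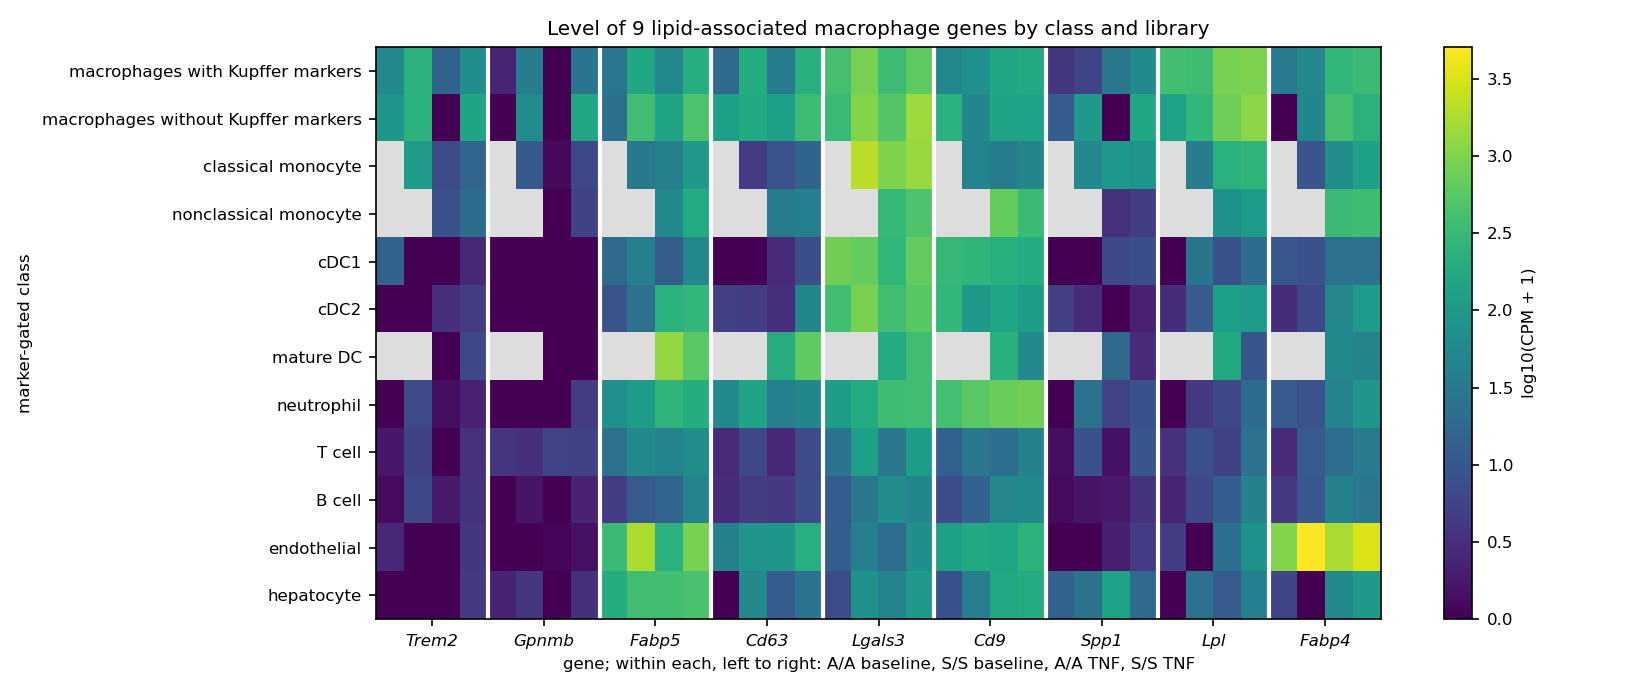
Level of each of the 9 genes in 12 of the cell classes (rows), on a colour scale of log10(CPM + 1), with 4 columns per gene, first A/A and S/S at baseline and then A/A and S/S after TNF. Grey marks classes with fewer than 25 cells in that library. Trem2 and Lpl are strongest in the macrophage rows, Fabp4 in the endothelial row and Cd9 in the neutrophil row.

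Trem2 (ENSMUSG00000023992.15), the lipid-sensing receptor, was higher in macrophages of S/S mice than of A/A mice and lower after TNF. In Kupffer-marked macrophages it had 40, 104, 17 and 112 UMIs, or 57.9 [41.4, 78.9], 251 [205, 304], 14.1 [8.23, 22.6] and 69.9 CPM [57.5, 84.1]. The S/S library was the higher at both times, and the TNF library the lower in both genotypes, with no overlap of these intervals. S/S stood 4.33-fold above A/A at baseline (log2 ratio 2.10 [1.58, 2.68]) and 4.95-fold after TNF (2.23 [1.56, 3.14]). TNF libraries were 4.10-fold lower in A/A (-1.96 [-2.95, -1.19]) and 3.59-fold lower in S/S (-1.83 [-2.24, -1.45]).

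The share of Kupffer-marked macrophages with a Trem2 UMI was 11.5, 32.6, 3.78 and 28.7%, against 0.966, 2.88, 0 and 1.93% of the deeper T cells. When every cell was thinned to 1000 UMIs, which left out 21, 45, 41 and 14 shallower cells, the shares were 6.83, 22.9, 0.330 and 8.75%. In unmarked macrophages Trem2 had 25, 135, 0 and 366 UMIs (91.9, 252, 0 and 147 CPM). S/S was 2.75-fold higher at baseline and at least 5.003-fold higher after TNF, where the A/A TNF value of 0 UMIs in 49 cells was set to 3 UMIs, or 29.3 CPM, for this bound. The S/S TNF library was 1.72-fold lower than the S/S baseline library in this class, a smaller gap than in Kupffer-marked cells. Classical monocytes of the S/S baseline library also held Trem2, at 111 CPM [93.0, 132], against 15.02 CPM in S/S after TNF and 28.5 CPM in the 14 cells of A/A at baseline.

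Gpnmb (ENSMUSG00000029816.11), a lysosomal and surface glycoprotein, separated the genotypes by presence in macrophages. Kupffer-marked macrophages held 1, 15, 0 and 42 UMIs (1.45, 36.2, 0 and 26.2 CPM), and unmarked macrophages 0, 32, 0 and 420 UMIs (0, 59.8, 0 and 168 CPM). The A/A macrophages of both times thus held a single Gpnmb UMI. After TNF S/S was at least 10.5-fold higher in Kupffer-marked macrophages and at least 5.74-fold higher in unmarked ones, and at baseline at least 5.42-fold higher in unmarked ones. The baseline ratio of Kupffer-marked cells, 15 UMIs against 1, was 24.998 with a log2 interval of 1.94 to 10.04. T cells held 2.78, 2.22, 4.57 and 4.17 CPM, with no such gap between genotypes. In the S/S TNF library 1 cell gave 39.3% of the Gpnmb UMIs of the unmarked class, and 48 of 229 unmarked cells (20.96%) held at least 1. No Gpnmb UMI was found in any conventional or mature dendritic cell of the 4 libraries.

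**Figure D2:**
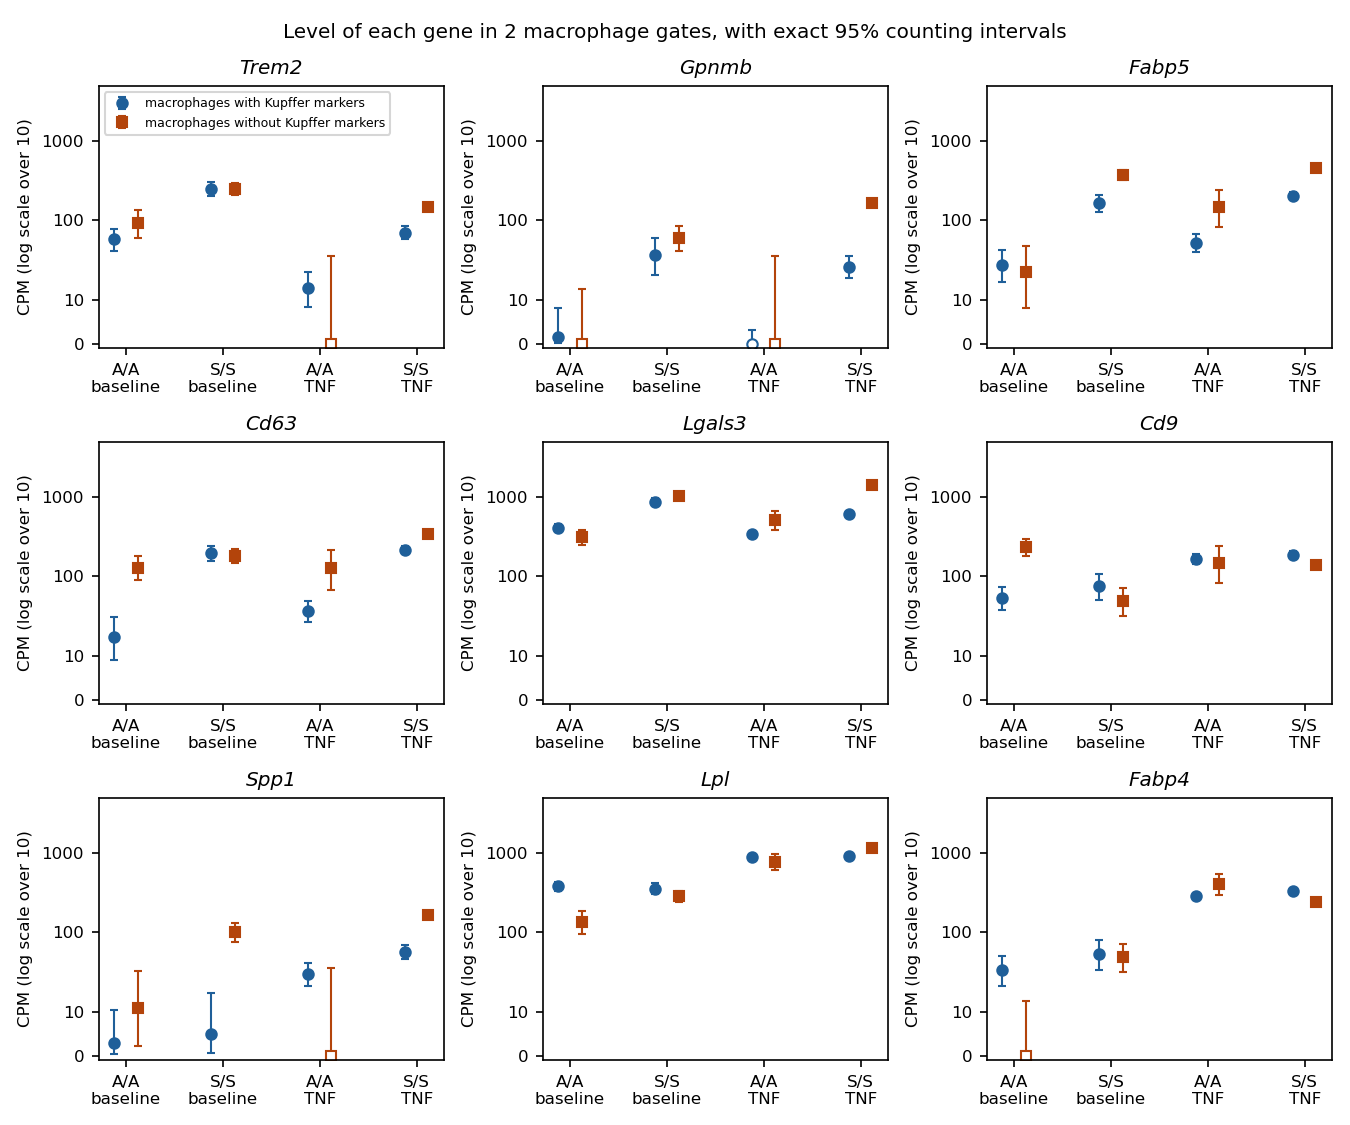
CPM of each gene on a log axis (linear under 10 CPM) in Kupffer-marked macrophages (circles) and unmarked macrophages (squares), 1 point per library with its 95% counting interval, and open markers for 0 UMIs. Trem2 and Gpnmb lie higher in S/S macrophages at both times, and Lpl and Fabp4 of Kupffer-marked macrophages higher in the TNF libraries.

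Lpl (ENSMUSG00000015568.17), the lipase that releases fatty acids from lipoproteins, followed TNF and not genotype in Kupffer-marked macrophages. Its level was 382 [338, 431], 357 [302, 420], 911 [858, 967] and 931 CPM [884, 980]. Both TNF libraries lay above both baseline libraries, and the genotypes overlapped at each time. The log2 ratio of TNF to baseline was 1.25 [1.06, 1.45] in A/A and 1.38 [1.14, 1.64] in S/S, while S/S against A/A was -0.10 [-0.40, 0.20] at baseline and 0.03 [-0.08, 0.14] after TNF. Thinned shares of cells with Lpl were 24.5, 27.9, 45.2 and 46.9%, against 0, 0.396, 0.2497 and 1.54% of T cells. Unmarked macrophages had 136, 288, 782 and 1159 CPM, 2.12-fold higher in S/S at baseline. In the A/A TNF library 56.3% of the 80 Lpl UMIs of that class came from 1 cell. Without the top cell of each library the TNF ratio in this class was 1.93 in place of 2.52 in A/A, and S/S against A/A after TNF 1.34 in place of 0.57.

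Fabp4 (ENSMUSG00000062515.4), a fatty acid carrier of adipocytes, endothelium and macrophages, was also higher in the TNF libraries. Kupffer-marked macrophages had 33.3 [21.1, 49.995], 53.1 [33.3, 80.4], 287 [257, 318] and 331 CPM [304, 361]. Both baseline values lay well under both TNF values, and the intervals of the genotypes overlapped at each time. The TNF library was 8.60-fold higher in A/A (3.07 [2.50, 3.78]) and 6.24-fold higher in S/S (2.62 [2.03, 3.33]). Thinned shares of cells were 4.82, 3.35, 21.5 and 27.5%, against 0, 0.793, 1.75 and 1.93% of T cells. The level in T cells was lower, at 1.85, 10.5, 21.0 and 33.7 CPM, but it too was higher in the TNF libraries, by 2.95 in A/A and 1.60 in S/S on the log2 scale. B cells gave 3.37 and 1.58. Endothelial cells held 1002, 5095, 1719 and 3198 CPM of Fabp4, and the 8 endothelial markers summed to 271, 128, 396 and 183 CPM in Kupffer-marked macrophages, with 7, 6, 8 and 7 of them seen. Per endothelial marker UMI there were 0.123, 0.415, 0.723 and 1.81 Fabp4 UMIs in Kupffer-marked macrophages and 0.0929, 0.463, 0.367 and 0.770 in endothelial cells. After TNF neutrophils (0.669 and 2.24) and classical monocytes (0.677 and 1.49) also lay above endothelial cells in this ratio. The part of endothelial or free RNA in these values was not tested.

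In unmarked macrophages Fabp4 had 0, 26, 42 and 608 UMIs (0, 48.6, 411 and 244 CPM). The TNF library was at least 37.2-fold higher in A/A and 5.02-fold higher in S/S. S/S was at least 4.41-fold higher at baseline and 1.68-fold lower after TNF.

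Fabp5 (ENSMUSG00000027533.11), the epidermal type of fatty acid carrier, was higher in S/S macrophages. Kupffer-marked macrophages had 27.5 [16.6, 43.0], 164 [127, 208], 52.3 [40.2, 66.9] and 204 CPM [183, 227]. Both S/S values lay above both A/A values. S/S was 5.96-fold higher at baseline (2.53 [1.83, 3.39]) and 3.90-fold after TNF (1.94 [1.57, 2.38]), while TNF against baseline was 0.90 in A/A and 0.31 in S/S on the log2 scale. Thinned shares of cells were 2.81, 16.2, 5.28 and 16.3%, against 1.69, 5.02, 3.37 and 5.79% of T cells. Unmarked macrophages had 22.1, 374, 147 and 466 CPM, 16.95-fold and 3.18-fold higher in S/S. In T cells Fabp5 had 23.0, 54.6, 46.6 and 66.3 CPM, 2.38-fold higher in S/S at baseline. Endothelial cells held 334, 1755, 232 and 921 CPM of Fabp5, and here too both S/S intervals lay above both A/A intervals. The S/S baseline value came from 26 cells. Kupffer-marked macrophages had 0.102, 1.28, 0.132 and 1.12 Fabp5 UMIs per endothelial marker UMI. In endothelial cells this ratio was 0.031, 0.159, 0.0496 and 0.222. The part of endothelial RNA in the macrophage values of Fabp5 was not tested. A pseudogene, Gm6166, shares 68.6% of its 31-base words with Fabp5 transcripts and had at most 23 UMIs in a macrophage class, in unmarked macrophages of S/S after TNF, where Fabp5 had 1163.

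Cd63 (ENSMUSG00000025351.15), a tetraspanin of late endosomes and lysosomes, showed in Kupffer-marked macrophages a wide gap between genotypes. It had 12, 81, 44 and 346 UMIs, or 17.4 [8.98, 30.4], 196 [155, 243], 36.5 [26.5, 49.1] and 216 CPM [194, 240]. S/S was 11.2-fold higher at baseline (3.42 [2.61, 4.50]) and 5.91-fold after TNF (2.53 [2.11, 3.05]). Thinned shares of cells were 2.81, 16.2, 2.64 and 18.1%, against 0, 0.528, 0.125 and 0.772% of T cells. In unmarked macrophages the values were 129, 183, 127 and 344 CPM, so that at baseline S/S and A/A overlapped there (0.51 [-0.06, 1.11]). Within the A/A baseline library the unmarked cells stood above the Kupffer-marked ones by 2.82 [1.91, 3.97] on the log2 scale, while within S/S at baseline the difference was -0.09 [-0.53, 0.35]. Cd63 was also higher in S/S, with intervals apart, in neutrophils at baseline (58.4 and 146 CPM). After TNF this held for endothelial cells (90.8 and 211 CPM) and mature dendritic cells (200.01 and 604 CPM). Endothelial cells at baseline (42.2 and 84.7 CPM) and neutrophils after TNF (39.1 and 49.7 CPM) overlapped between genotypes.

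Cd9 (ENSMUSG00000030342.9), a tetraspanin of the cell surface and of exosomes, had levels in Kupffer-marked macrophages that overlapped between the genotypes at each time. They were 53.6 [37.7, 73.9], 74.8 [50.8, 106], 165 [143, 190] and 187 CPM [166, 209]. The TNF libraries were higher, by 1.61 in A/A and 1.31 in S/S on the log2 scale. Thinned shares were 2.81 [1.14, 5.71], 4.47 [1.95, 8.62], 2.64 [1.15, 5.14] and 10.6% [6.31, 16.5], so that after TNF more S/S than A/A cells held Cd9, with intervals apart, while the level overlapped. Unmarked macrophages had 235, 48.6, 147 and 142 CPM, and here S/S was 4.84-fold lower than A/A at baseline (-2.25 [-2.99, -1.60]). Neutrophils held 402, 573, 728 and 799 CPM, and neutrophil markers summed to 31.9, 53.1, 152 and 153 CPM in Kupffer-marked macrophages. The part of neutrophil RNA in the macrophage values was not tested.

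Lgals3 (ENSMUSG00000050335.18), the galectin secreted by activated macrophages and monocytes, had 413 [366, 464], 881 [793, 976], 342 [310, 377] and 620 CPM [582, 659] in Kupffer-marked macrophages. The S/S library was higher at both times, by 1.09 [0.87, 1.32] and 0.85 [0.69, 1.03]. Thinned shares of cells were 31.7, 53.6, 30.7 and 46.9%, against 2.42, 10.8, 2.75 and 7.72% of T cells. Unmarked macrophages had 312, 1039, 518 and 1446 CPM and classical monocytes 935, 2087, 985 and 1377 CPM. T cells also differed by genotype, with 24.6, 123, 29.8 and 119 CPM, a 5.01-fold gap at baseline and a 3.99-fold gap after TNF. The level in T cells was below that in macrophages in each library.

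Spp1 (ENSMUSG00000029304.15), the secreted phosphoprotein osteopontin, was held by few cells. Kupffer-marked macrophages had 2, 2, 36 and 91 UMIs, of which 1 cell gave 88.9% in A/A after TNF and 48.4% in S/S after TNF. Unmarked macrophages had 3, 54, 0 and 417 UMIs (11.03, 101, 0 and 167 CPM), with 63.0% from 1 cell in S/S at baseline and 24.7% in S/S after TNF, where 20 of 229 cells held it. Apart from the unmarked S/S cells after TNF, 48.4% or more of each of these values above 3 UMIs thus came from 1 cell. Without the top cell of each library, S/S against A/A after TNF in Kupffer-marked macrophages was 2.84 in place of 0.90 on the log2 scale, and TNF against baseline in unmarked S/S macrophages 1.69 in place of 0.72. Classical monocytes had 54.3, 94.1 and 82.1 CPM in S/S at baseline and the TNF libraries, with 96.9% from 1 cell in S/S at baseline. The 2 barcodes with cholangiocyte markers in A/A after TNF held 805 Spp1 UMIs.

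Counted over the genes, S/S against A/A gave differences in a single direction in Kupffer-marked macrophages. At baseline 4 of the 7 genes that reached 20 UMIs in the pair were over 2-fold apart, all higher in S/S (Trem2, Fabp5, Cd63 and Lgals3), where 23.4% of all 4850 genes so measured were over 2-fold apart and 5.46% higher. Cd9, Lpl and Fabp4 were within 2-fold, and Gpnmb and Spp1 had too few UMIs. After TNF 4 of 9 were over 2-fold apart, again all higher in S/S (Trem2, Gpnmb, Fabp5 and Cd63), where 12.3% of genes were over 2-fold apart and 6.80% higher. The median log2 ratio of the measured members was 1.09 and 0.90, against -0.15 and 0.00 over all genes. The genes were chosen with these ratios known, so nothing is read from the counts beside the background.

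In unmarked macrophages 8 of 9 genes were over 2-fold apart between S/S and A/A at baseline, 7 higher and Cd9 lower, where 43.5% of genes were over 2-fold apart and 17.0% higher. After TNF 6 of 9 were, all higher in S/S, where 35.0% of genes were over 2-fold apart and 21.8% higher. The 6 were Trem2, Gpnmb, Fabp5, Cd63, Lgals3 and Spp1, and Spp1 lay lower in S/S (-0.53) once barcodes that also carried monocyte or dendritic cell markers were kept. The A/A side of this comparison was 61 and 49 cells. Classical monocyte markers summed to 577, 856, 235 and 998 CPM in unmarked macrophages and to 158, 128, 108 and 356 CPM in Kupffer-marked ones. Erythroid markers, which were higher in S/S, summed to 2.90, 210, 7.48 and 36.2 CPM in Kupffer-marked macrophages, with 2, 6, 3 and 4 of 7 seen. The part of either cell type in the results was not tested.

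Between TNF and baseline 6 of 8 measured genes were over 2-fold apart in Kupffer-marked macrophages of A/A, where 31.6% of all genes were. Cd63, Cd9, Spp1, Lpl and Fabp4 were higher and Trem2 lower. In S/S 5 of 9 were, with Cd9, Spp1, Lpl and Fabp4 higher and Trem2 lower, where 45.7% of all genes were, a share near that of the members. In A/A after TNF Spp1 was held by 2 of 344 Kupffer-marked cells, and a single cell gave most of its UMIs. The median member ratio was 1.14 in A/A and 0.31 in S/S, against 0.08 and 0.39 over all genes. In unmarked macrophages 4 of 7 were over 2-fold apart in A/A (46.0% of genes) and 4 of 9 in S/S (33.8% of genes). The first were Fabp5, Lpl and Fabp4, which were higher, and Trem2, at least 3.13-fold lower. In S/S they were Gpnmb, Cd9, Lpl and Fabp4, all higher. Gpnmb was 1.48 there, and 1.02 without the top cell of each library. The A/A and S/S comparisons each used their own pair of libraries, while each library also entered a genotype comparison.

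**Figure D3:**
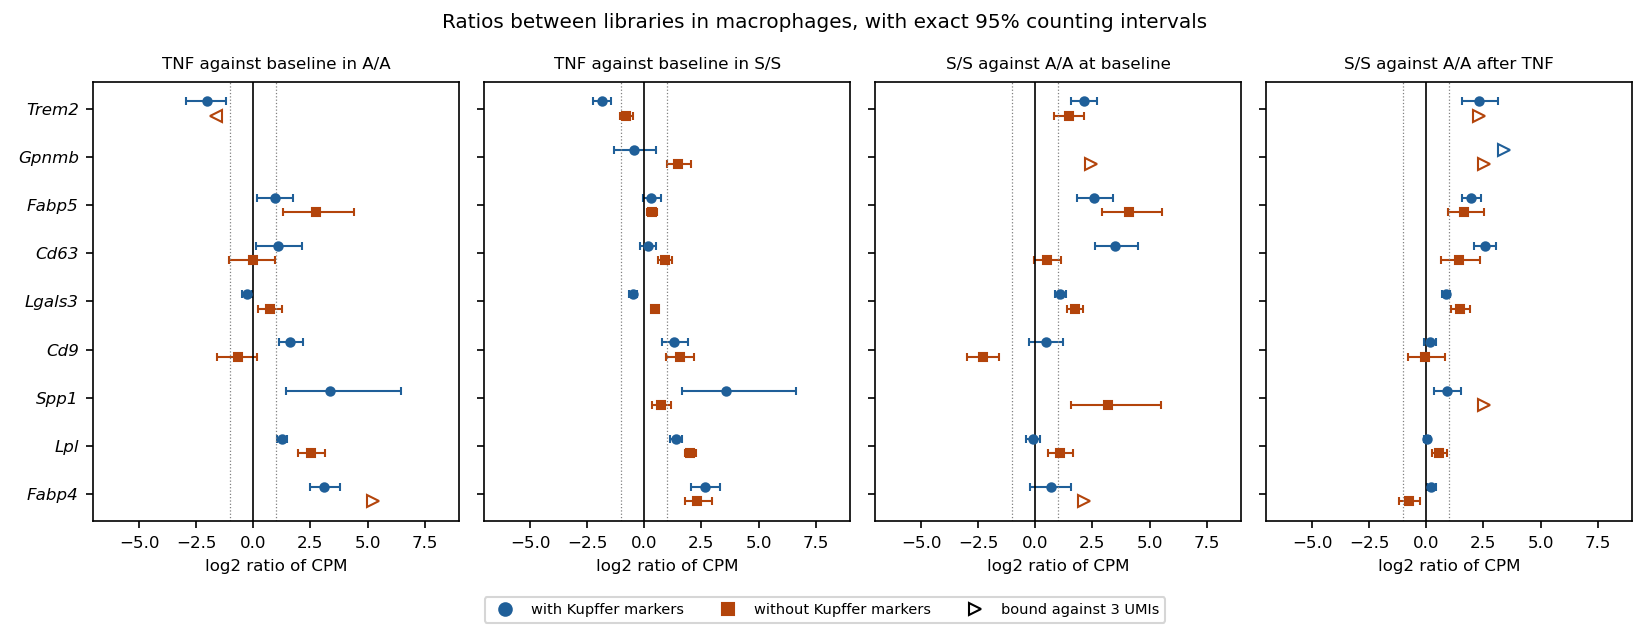
Log2 ratio of CPM for each gene that reached 20 UMIs in the pair, in the 4 comparisons, for Kupffer-marked and unmarked macrophages, with 95% counting intervals. Open triangles are bounds against 3 UMIs and dotted lines mark a 2-fold difference. Trem2, Fabp5 and Cd63 of Kupffer-marked macrophages lie past the line in both genotype panels, and Lpl and Fabp4 in both TNF panels.

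In T cells 8 of 9 genes were also over 2-fold higher in S/S at baseline, where 6.97% of all genes were, with a member median of 1.26 against 0.12 over all genes. After TNF 4 of 8 were, where 4.58% of genes were. Gpnmb was the gene below 2-fold at baseline, at -0.23 [-1.48, 0.83]. The T cell levels ran from 0 UMIs of Trem2 in A/A after TNF to 123 CPM for Lgals3 in S/S at baseline. The part of free RNA in these values was not tested.

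Single cells were described by how many of the 9 genes they held at 1000 UMIs per cell. At least 3 genes were held by 2.81% (7 of 249) [1.14, 5.71], 18.99% (34 of 179) [13.5, 25.5], 3.63% (11 of 303) [1.83, 6.40] and 26.3% (42 of 160) [19.6, 33.8] of Kupffer-marked macrophages. Both S/S intervals lay above both A/A intervals. Without thinning the shares were 11.5, 30.4, 25.6 and 64.9%. In unmarked macrophages the thinned shares were 5.36% (3 of 56), 13.04% (24 of 184), 0 of 32, which at 3 cells allows up to 9.38%, and 30.6% (64 of 209). T cells reached 3 genes in 0 of 413, 0 of 757, 0 of 801 and 1 of 259 cells. Classical monocytes did so in 0 of 14 cells and in 3.53, 4.57 and 4.67%, and endothelial cells, which hold Fabp4 and Fabp5, in 2.55, 15, 4.34 and 23.5%. All 9 genes together were found in single Kupffer-marked and unmarked macrophages of the S/S TNF library without thinning.

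**Figure D4:**
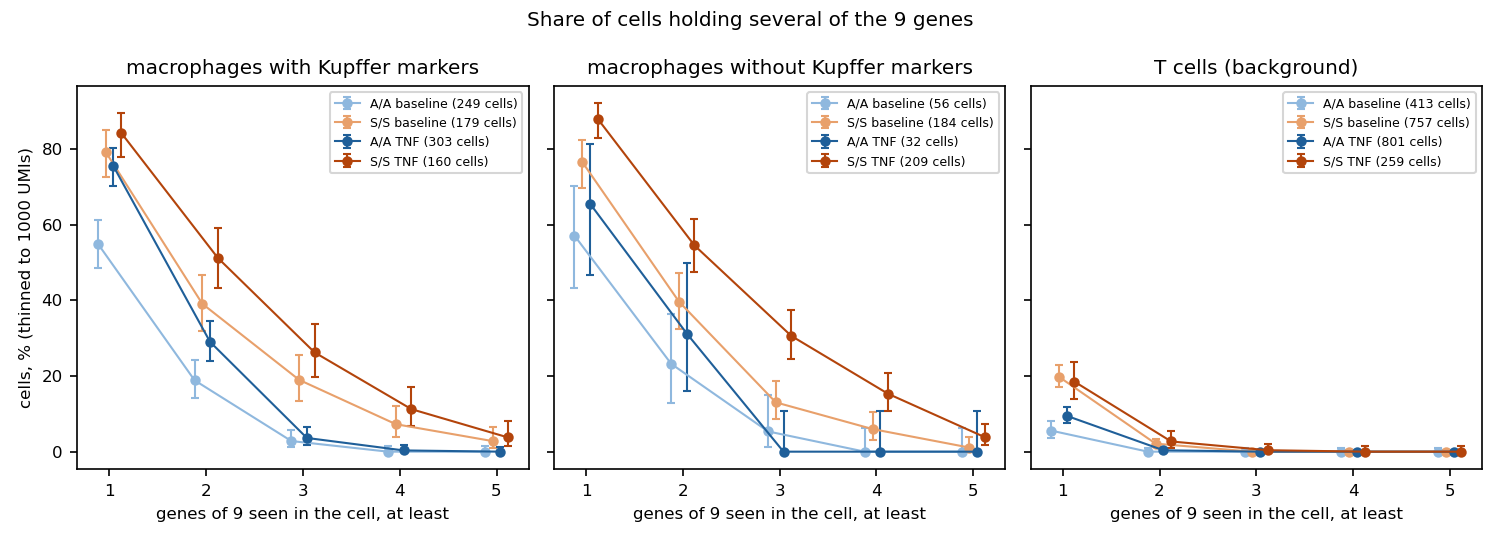
Share of cells holding at least 1 to at least 5 of the 9 genes after thinning to 1000 UMIs, for Kupffer-marked macrophages, unmarked macrophages and T cells, 1 line per library with 95% binomial intervals. Both S/S lines lie above both A/A lines at 3 or more genes in Kupffer-marked macrophages, where T cells are near 0.

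Trem2 and Gpnmb were found in the same cell in S/S macrophages, while no A/A macrophage held both (0 of 270 and 344 Kupffer-marked, 0 of 61 and 49 unmarked cells). Set to 3 cells each, those counts allow shares of cells with a UMI of both genes of up to 1.11, 0.872, 4.92 and 6.12%. In S/S at baseline 4 of 224 Kupffer-marked (1.79%) and 15 of 237 unmarked macrophages (6.33%) held both, and after TNF 12 of 174 (6.90%) and 39 of 229 (17.0%). The product of the single shares was 2.39% in unmarked cells at baseline and 7.87% after TNF, and 1.31 and 2.48% in Kupffer-marked cells. In A/A this product was at most 0.0425%, as these macrophages held a single Gpnmb UMI. Cells differed in depth, with medians of 17644.5 UMIs with Trem2 and 2392 without in unmarked S/S cells after TNF. The part of depth in joint shares above the product was not tested. Classical monocytes of S/S also held both genes, in 5 of 88 cells (5.68%) at baseline and 3 of 301 (0.997%) after TNF. At 1000 UMIs per cell the joint shares in unmarked cells were 2.72% and 2.39%, 5 cells each, so that the gap between baseline and TNF in the unthinned shares was not there at equal depth. In Kupffer-marked S/S cells they were 0.559% (1 of 179) and 0.625% (1 of 160) at that depth. The A/A counts were 0 of 249 and 0 of 303 Kupffer-marked and 0 of 56 and 0 of 32 unmarked cells. Their intervals overlapped those of S/S in both classes.

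Within the S/S libraries, macrophages with a Gpnmb UMI were compared with those without one, and other genes were counted after thinning to 1000 UMIs. At baseline 28 cells had Gpnmb and 335 did not, with median depths of 2112 and 1765 UMIs. Lpl was found in 53.6% [33.9, 72.5] of the first and 21.5% [17.2, 26.3] of the second, and Lgals3 in 78.6% [59.0, 91.7] and 49.9% [44.4, 55.3]. Trem2 was found in 39.3 against 20%, Fabp5 in 35.7 against 15.8% and Cd63 in 28.6 against 13.1%. For Cd9 the shares were 3.57 and 4.18% and for Fabp4 3.57 and 4.78%. The Kupffer marker Clec4f was found in 14.3% of cells with Gpnmb and 29.6% of those without, Vsig4 in 7.14 and 28.7%, and Timd4 in 0 of 28 and 8.66%. Of these genes only Lgals3, Lpl and Vsig4 had intervals that did not overlap between the cells with and without Gpnmb at baseline.

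After TNF 63 S/S macrophages held Gpnmb and 306 did not, with median depths of 17548 and 4028 UMIs before thinning. Cd63 was found in 39.7% [27.6, 52.8] of the first and 15.7% [11.8, 20.3] of the second, Trem2 in 23.8% [14.0, 36.2] and 6.54% [4.04, 9.91], and Spp1 in 14.3% [6.75, 25.4] and 1.31% [0.357, 3.31]. Fabp5 was found in 38.1 against 19.6% and Lgals3 in 73.0 against 46.4%. Lpl (54.0 and 41.2%), Cd9 (11.1 and 9.15%) and Fabp4 (19.0 and 24.2%) had overlapping intervals. Clec4f was found in 4.76 and 17.97% and Timd4 in 1.59 and 12.7%. Lgals3 was thus more frequent beside Gpnmb at both times, and Trem2, Fabp5, Cd63 and Spp1 after TNF, with intervals apart. Cells with Gpnmb were the deeper ones, and the part of depth in which cells were seen to hold Gpnmb was not tested. Both macrophage classes were pooled here, and after TNF 48 unmarked and 15 Kupffer-marked cells held Gpnmb. In that library the unmarked class also had the higher levels of Trem2, Fabp5, Cd63, Lgals3 and Spp1. The part of this mix of classes in the shares was not tested.

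**Figure D5:**
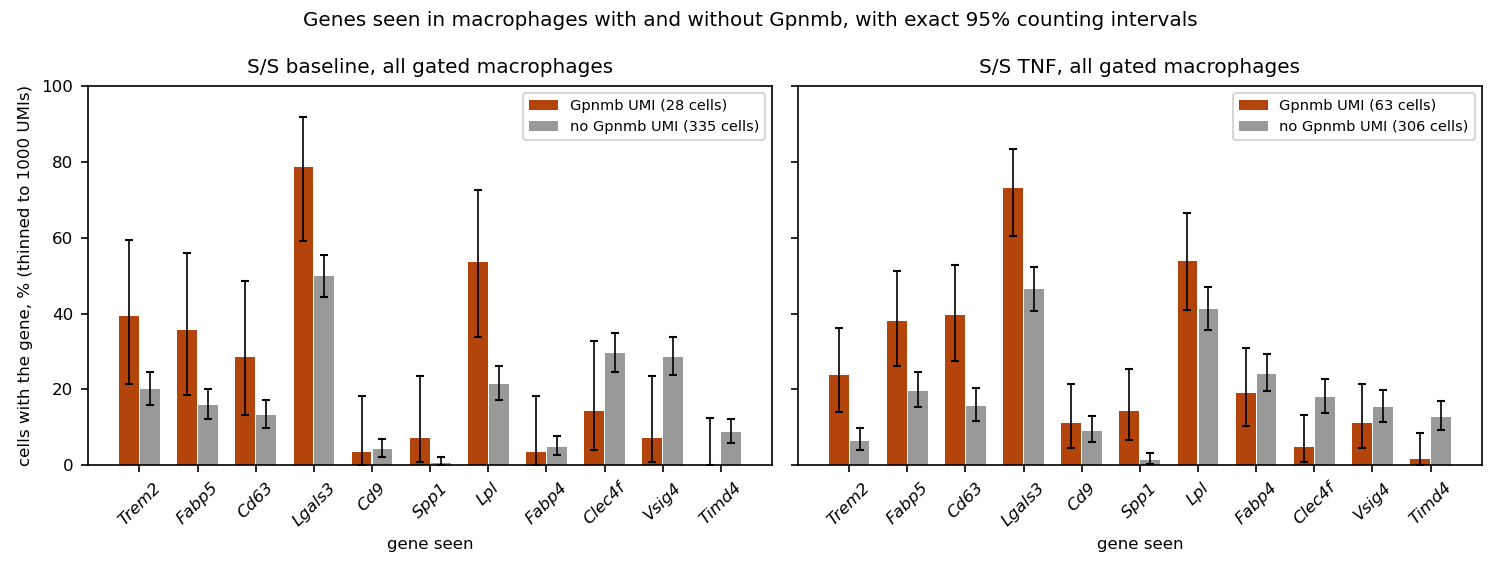
Share of S/S macrophages in which each gene was found at 1000 UMIs per cell, for cells with and without a Gpnmb UMI, at baseline (28 and 335 cells) and after TNF (63 and 306 cells), with 95% binomial intervals. After TNF the intervals of Trem2, Fabp5, Cd63 and Lgals3 lie higher with Gpnmb and those of the Kupffer markers Clec4f and Timd4 lower, while at baseline those of Lgals3 and Lpl lie higher and that of Vsig4 lower.

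The split by Kupffer markers moved with genotype as well. Of all macrophages, 18.4% [14.4, 23.0], 51.4% [46.7, 56.1], 12.5% [9.37, 16.1] and 56.8% [51.8, 61.7] had no UMI of the 3 markers, and 25.9, 56.7, 23.0 and 71.3% at 1000 UMIs per cell. Clec4f was found in 61.3, 28.4, 56.1 and 15.7% and Timd4 in 24.9, 7.99, 28.1 and 10.8% of thinned macrophages. At baseline Vsig4 was found in 55.7% of them in A/A and 27.0% in S/S. Within S/S after TNF, unmarked cells stood above Kupffer-marked ones for Gpnmb by 2.64 [2.22, 3.18], Spp1 by 1.54, Lgals3 by 1.22, Fabp5 by 1.19 and Trem2 by 1.06 on the log2 scale, where 9.12% of genes were over 2-fold apart. Cd9 (-0.40) and Fabp4 (-0.44) were lower in the unmarked cells. Within S/S at baseline 2 of 9 genes were over 2-fold apart, Fabp5 by 1.18 [0.78, 1.61] and Spp1 by 4.13 [2.46, 7.47], where 16.6% of genes were. The Spp1 value rested on 54 UMIs against 2. The 54 UMIs were held by 6 of 237 unmarked cells, and most of them came from a single cell.

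Monocytes and dendritic cells are described by the levels of the 9 genes, all of which were seen in classical monocytes of both S/S libraries. In classical monocytes, Ly6C-high blood monocytes, 3 of 9 genes were over 2-fold higher in S/S after TNF (Trem2, Gpnmb and Fabp5), where 5.58% of genes were over 2-fold apart. Their levels were 6.27 and 15.02 CPM for Trem2, 0.261 and 5.35 CPM for Gpnmb (1 UMI against 36) and 41.3 and 101 CPM for Fabp5. TNF against baseline in S/S gave 5 of 9 (35.5% of genes): Fabp5, Cd63, Lpl and Fabp4 higher and Trem2 lower, at -2.81 [-3.28, -2.50]. Nonclassical monocytes, which patrol vessels, held Fabp4 at 331 and 361 CPM and Cd9 at 670.4 and 337 CPM in A/A and S/S after TNF. In cDC2, the dendritic cells that prime CD4 T cells, Fabp5 had 8.03, 24.3, 235 and 280.3 CPM, Lpl 2.01, 10.4, 122 and 113 CPM and Fabp4 2.01, 5.21, 51.3 and 108 CPM. All 3 were higher in both TNF libraries, where 34.5 and 35.4% of all genes were over 2-fold apart, in classes of 27 to 45 cells.

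Related genes, 85 in 9 lists, were described in Kupffer-marked macrophages beside the all-gene values given above. The binding partners and signalling genes of TREM2 did not share its pattern. In A/A 0 of 9 were over 2-fold higher and 2 lower after TNF (median log2 ratio -0.46), and in S/S 5 were higher and 0 lower (1.31). Between genotypes 0 were higher and 3 lower in S/S at baseline (-0.74), and 0 of 9 were over 2-fold apart after TNF (0.46). Syk, the kinase that TREM2 signalling recruits, had 139, 60.4, 226 and 237 CPM, and the phospholipase Plcg2 had 55.1, 14.5, 24.9 and 37.4 CPM. Both were lowest in S/S at baseline, where Trem2 was highest. The adaptor Tyrobp, through which TREM2 signals and which was picked for this role after its values were seen, had 2185, 2484, 1522 and 1669 CPM and stayed within 2-fold in every comparison.

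Genes of lipid uptake, storage and efflux were over 2-fold higher in 3 and lower in 1 of 11 in A/A after TNF (median -0.43) and in 5 and 1 of 11 in S/S (0.63). The scavenger receptor Msr1 had 126, 123, 691 and 538 CPM, the fatty acid receptor Cd36 24.6, 33.8, 124 and 107 CPM, and the cholesterol exporter Abca1 50.7, 50.7, 99.7 and 166 CPM. All 3 were higher in both TNF libraries, as Lpl and Fabp4 were. Between genotypes 0 of 10 were over 2-fold apart at baseline (0.06) and 2 of 11 after TNF (0.37), both higher in S/S. These were the lysosomal cholesterol transporter Npc1 (19.1 and 51.8 CPM) and the lysosomal lipase Lipa (88.9 and 188 CPM).

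Of the partners of lipoprotein lipase, 2 of 3 measured were over 2-fold higher after TNF in each genotype (medians 1.86 and 1.87), 0 of 2 were apart between genotypes at baseline (-0.43), and after TNF 1 was higher and 1 lower of 3 (0.44). Furin, a protease that cleaves the lipase, had 21.7, 24.1, 81.4 and 111 CPM. Gpihbp1, the endothelial anchor of the lipase, had 10.1, 9.66, 54.0 and 12.5 CPM. Of the other fatty acid binding proteins, Fabp7, the form found in Kupffer cells, and Fabp1, the hepatocyte form, were measured. Fabp7 had 453, 345, 108 and 125 CPM, lower in both TNF libraries (-2.06 [-2.38, -1.77] and -1.45 [-1.78, -1.14]) where Fabp4 was higher. Fabp1 had 75.3, 133, 42.4 and 23.1 CPM, and 0 of 2 were over 2-fold apart between genotypes (0.21 at baseline and -0.32 after TNF), against 1 and 2 of 2 lower after TNF (-1.44 and -1.96).

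Lysosomal genes were over 2-fold higher in 1 and lower in 1 of 11 after TNF in each genotype (medians 0.07 and 0.33), lower in 1 of 11 in S/S at baseline (-0.28) and higher in 1 of 11 in S/S after TNF (0.31). Psap, the sphingolipid activator precursor, had 1172, 731.5, 1101 and 2255 CPM. Of the other tetraspanins 1 of 7 was over 2-fold higher and 0 lower in A/A after TNF (0.64), and 4 and 1 of 8 in S/S (0.91). Between genotypes 1 of 5 was higher at baseline (-0.03) and 1 of 8 after TNF (0.01), Tspan3 both times, with 20.3, 53.1, 11.6 and 58.0 CPM.

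Receptors of osteopontin were over 2-fold higher in 2 and lower in 1 of 6 in A/A after TNF (median -0.29) and in 4 and 1 of 6 in S/S (1.496). Cd44, which binds hyaluronan and osteopontin, had 182, 101, 433 and 572 CPM. Between genotypes 2 of 6 were lower in S/S at baseline (-0.76) and 2 of 7 higher after TNF (0.38). Transcriptional regulators were over 2-fold higher in 1 and lower in 2 of 9 in A/A after TNF (0.53) and in 4 and 0 of 10 in S/S (0.86). In S/S against A/A, 1 was higher and 3 were lower of 9 at baseline (-0.69), and 2 of 10 were higher after TNF (0.23). Pparg, a lipid-activated nuclear receptor, was the higher one at baseline, with 11, 14, 4 and 30 UMIs in the 4 libraries.

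Further genes described with lipid-associated macrophages were over 2-fold higher in 4 and lower in 5 of 12 in A/A after TNF (median -0.53), and in 5 and 2 of 12 in S/S (-0.12). In S/S against A/A, 3 of 10 were higher and 2 lower at baseline (0.47), and 5 of 12 higher and 1 lower after TNF (0.65). Lgals1, a galectin like Lgals3, had 29.0, 316, 23.3 and 183 CPM, a log2 difference of 3.40 [2.76, 4.21] at baseline and 2.93 [2.42, 3.59] after TNF. Anxa2, a membrane-binding annexin, had 26.1, 106, 115 and 254 CPM. Both lay higher in S/S at each time. Mmp12, the macrophage elastase, had 50.7, 74.8, 3.32 and 28.1 CPM and was lower in both TNF libraries than at baseline.

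The genes with the most similar pattern were found across 43 sums of 1 class in 1 library, over 14443 genes, as Pearson r of log2(CPM + 10). These sums share libraries and classes, and r is a description. Trem2 was followed by Fcgr1 (0.970), Ms4a7 (0.897) and Adap2os (0.893), of which the first 2 were macrophage gate markers. Among the genes most like Lpl were Slc7a8 (0.903) and Spic (0.887), and Gpnmb was followed by Ccl12 (0.907), Cbr2 (0.863) and Trem2 itself (0.768). Fabp4 was most like the endothelial genes Tm4sf1 (0.941), Igfbp7 (0.929) and Sparc (0.928). Lgals3 was nearest to Lyz2 (0.890), Cd63 to Id1 (0.827), Cd9 to Dusp1 (0.810), Fabp5 to its copy Gm6166 (0.814) and Spp1 to Ccl9 (0.789).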

How the data were processed

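Single-cell RNA was measured in 4 libraries, 1 per group. Per the file headers, the authors deposited UMI counts per gene and barcode from Cell Ranger 7.1.0 (baseline) and 6.1.2 (TNF), and per the submitters' processing notes the build was mm39. Whether introns were counted is not given in the sources used here. Barcodes of the TNF matrices all had 250 genes or more.

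Cells needed 300 genes and could have up to 20% mitochondrial UMIs. A marker was on with at least 1 UMI and over 2 times its share in the library. A cell took the class with at least 3 markers on and more than any other class, and cells in which another class had at least 3 on and at least 1 for every 2 of the leading class were left out, which also removed many mixed barcodes. No doublet caller was run. Of 152 listed markers 151 were found. UMIs were summed per class and library and scaled to CPM. Log2 ratios used a pseudocount of 1 CPM and at least 20 UMIs in the pair, and 2-fold apart means an absolute log2 ratio of at least 1. Folds are ratios of CPM without the pseudocount, and a fold against 0 UMIs is a bound against 3 UMIs per library. Limits for 0 cells are 3 cells of the total. Intervals are exact (Poisson, binomial or conditional binomial, 95%) and cover counting error only, since cells are not replicates and the spread between mice was not measured. Thinning to 1000 UMIs used seed 1. Promoters came from RefSeq (GRCm38.p6), with 6 of the 9 genes matched, and served for sequence only. Genes outside the 9 were named by size of ratio within lists or by likeness. The ratio script was tested on simulated data. The members and lists were chosen with earlier results of these data known. The work ran in Python 3.11.15 with matplotlib 3.10.9, pandas 2.3.3, scipy 1.17.1 and numpy 2.4.6. Values of some single genes are not reported here.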

Additional observations from a re-analysis of the deposited data

Results flagged for a closer look

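In 6 pairs of comparisons a gene with at least 20 UMIs in each pair of libraries lay in opposite directions with both counting intervals clear of 0, and none of these differences was tested, since each group was 1 library. All values are log2 ratios. In unmarked macrophages Fabp4 in S/S against A/A was 5.63 at baseline, a value set by 0 UMIs in A/A, and -0.75 after TNF. In endothelial cells Fabp4 in TNF against baseline was 0.78 in A/A and -0.67 in S/S, and the S/S baseline library held 26 endothelial cells. In B cells Fabp4 in S/S against A/A was 1.28 at baseline and -0.51 after TNF. In neutrophils Fabp5 in S/S against A/A was 0.58 at baseline and -0.40 after TNF. In the class of NK cells or ILC1 (innate lymphoid cells) Spp1 in TNF against baseline was 4.18 in A/A and -1.84 in S/S, and in S/S against A/A it was 3.26 at baseline and -2.75 after TNF. A single cell gave 88.2% of the Spp1 UMIs of that class in S/S at baseline and all 56 of them in A/A after TNF.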

How the results depend on the processing

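The count of genes over 2-fold apart stayed within 1.5 times its main value under every alternative, except as follows. With cells thinned to 1000 UMIs it was 3 of 5 measured genes for TNF in Kupffer-marked A/A macrophages, 3 of 7 in S/S, 1 of 2 for TNF in unmarked A/A macrophages and 5 of 6 for S/S against A/A at baseline in unmarked ones, in each case with fewer genes measured. Without cells that had an endothelial or hepatocyte marker on it was 2 of 5 for TNF in unmarked A/A macrophages and 5 of 7 for the baseline genotypes, again with fewer genes measured. With barcodes that also carried monocyte or dendritic cell markers kept, an alternative chosen after seeing the data, it was 7 of 9 for TNF in unmarked S/S macrophages, and Spp1 in S/S against A/A after TNF turned to -0.53; the cause was not tested. The share of Kupffer-marked macrophages with at least 3 genes was 11.5, 30.4, 25.6 and 64.9% without thinning and 6.90, 32.9, 18.9 and 55.4% at 2000 UMIs, so the S/S share lay higher at each depth and the A/A TNF share depended most on depth. When cells needed 500 genes and up to 10% mitochondrial UMIs, the A/A TNF share was 6.73%.

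Lgals3 between the genotypes at baseline and Cd63 in A/A after TNF, both near 2-fold in Kupffer-marked macrophages, fell below it in 4 and 3 alternatives, and Cd9 in S/S after TNF in 2. Trem2 in S/S against A/A at baseline in unmarked macrophages was 0.64 with monocyte or dendritic marked barcodes kept. Scaling to the median gene, among genes with at least 20 UMIs in both libraries, subtracted that gene's own log2 ratio from each ratio. In Kupffer-marked macrophages the subtracted value was -0.08, -0.40, 0.22 and -0.04 (TNF in A/A, TNF in S/S, genotypes at baseline, genotypes after TNF). In unmarked ones it was 0.53, -0.27, -0.27 and -0.11. Negative values thus raised the log2 ratios and positive values lowered them. No paired analysis was possible because each group held 1 library and the labels give no replicate numbers, and for the same reason no replicate could be left out. The unmarked A/A macrophages, 61 and 49 cells, limit every comparison that uses them, and the depth of the 4 libraries cannot stand in for the variation between mice.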
